A study of Mus musculus with 6 samples.

Results

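The mitochondrial ribosomal protein genes of the mouse were followed through 3 lists of Eomes peaks from natural killer (NK) cells. The members were the genes whose symbols consist of Mrpl (large subunit) or Mrps (small subunit), a number and at most 1 further letter. Of 78 such protein-coding genes in RefSeq, among 21896 protein-coding genes in all, 73 had at least 1 peak assigned to them in the lists, and all 78 were kept as the denominator. No peak was assigned to Mrpl24, Mrpl33, Mrpl50, Mrpl57 or Mrps12.

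Eomes is a T-box transcription factor, and the study asked where it binds in the genome of mouse NK cells. NK cells were isolated from the combined spleens of C57BL/6 mice of wild-type genotype, 8 to 12 weeks old, and expanded for 4 days in 100 ng/mL IL-15, a cytokine that sustains NK cells in culture. Chromatin was immunoprecipitated (IP) with an antibody against Eomes in 3 experiments, giving 3 IP libraries and, from DNA without immunoprecipitation, 3 input libraries. All cells were wild type and treated alike, so the comparison available was IP over input within each list, followed by members over other genes. Because the spleens were pooled, the spread between experiments does not measure the spread between animals.

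Mitochondrial ribosomes translate the few proteins encoded by mitochondrial DNA, all of them subunits of the respiratory chain or ATP synthase. Every protein of these ribosomes is encoded in the nucleus, made in the cytosol and imported, while the ribosomal RNA is made inside the organelle. Some members descend from bacterial ribosomal proteins and others were added during the evolution of mitochondria. Many of the genes are known to start at CpG-rich promoters that hold motifs of ETS factors, NRF1 and YY1. T-box factors bind sites around the letters AGGTGTGA.

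Promoter sequences of 5 members are shown because they carry the contrasts described further on. They run from 250 bases before the RefSeq start to 50 bases from the start on, 5′ to 3′ on the gene's strand (RefSeq, GRCm38.p6, the assembly behind mm10). Capitals mark GTGTGA (the inner letters of the T-box site), CCGGAA (the ETS core), GCGCATGCG (NRF1) and AAGATGGC (YY1), or their reverse complements. Mrpl12 and Mrpl18 had the highest-scoring promoter regions among members, Mrps15 and Mrpl39 hold both T-box and ETS letters, and the window of Mrps11 covers the start it shares with Mrpl46.
Mrpl12 promoter, chr11:120484387-120484686, plus strand: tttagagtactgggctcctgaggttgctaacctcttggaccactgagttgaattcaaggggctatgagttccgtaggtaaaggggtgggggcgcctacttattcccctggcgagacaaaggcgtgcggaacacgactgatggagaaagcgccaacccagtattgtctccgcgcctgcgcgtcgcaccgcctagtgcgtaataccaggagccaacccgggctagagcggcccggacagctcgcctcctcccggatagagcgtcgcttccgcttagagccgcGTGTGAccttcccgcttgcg
Mrpl18 promoter, chr17:12916042-12916341, minus strand: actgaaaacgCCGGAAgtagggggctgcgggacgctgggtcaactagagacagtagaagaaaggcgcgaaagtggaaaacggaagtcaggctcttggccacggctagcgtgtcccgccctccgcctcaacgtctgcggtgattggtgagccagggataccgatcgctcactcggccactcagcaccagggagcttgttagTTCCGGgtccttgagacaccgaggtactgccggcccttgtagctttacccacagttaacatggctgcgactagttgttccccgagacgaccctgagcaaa
Mrps15 promoter, chr4:126046678-126046977, plus strand: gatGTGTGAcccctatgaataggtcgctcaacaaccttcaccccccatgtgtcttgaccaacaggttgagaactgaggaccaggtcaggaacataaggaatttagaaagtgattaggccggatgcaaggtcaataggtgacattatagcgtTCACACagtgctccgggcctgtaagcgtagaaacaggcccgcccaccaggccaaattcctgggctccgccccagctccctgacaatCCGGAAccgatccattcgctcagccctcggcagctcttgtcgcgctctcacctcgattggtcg
Mrpl39 promoter, chr16:84735195-84735494, minus strand: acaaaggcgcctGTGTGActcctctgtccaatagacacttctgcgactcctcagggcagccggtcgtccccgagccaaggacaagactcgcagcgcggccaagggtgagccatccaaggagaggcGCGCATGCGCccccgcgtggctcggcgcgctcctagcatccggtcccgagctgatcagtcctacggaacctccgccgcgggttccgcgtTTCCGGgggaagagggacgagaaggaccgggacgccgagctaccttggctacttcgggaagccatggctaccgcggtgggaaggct
Mrps11 promoter, chr7:78782881-78783180, plus strand: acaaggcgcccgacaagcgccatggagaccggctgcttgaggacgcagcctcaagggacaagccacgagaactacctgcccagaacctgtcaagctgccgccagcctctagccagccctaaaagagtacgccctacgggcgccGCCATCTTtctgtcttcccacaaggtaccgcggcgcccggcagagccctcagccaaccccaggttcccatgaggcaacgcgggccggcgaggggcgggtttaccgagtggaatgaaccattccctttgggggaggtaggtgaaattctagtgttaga

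In the files, each peak has a pileup, read here as the number of IP fragments at its summit, and a fold enrichment over background, both as the authors deposited them. Peaks of different experiments that shared at least 1 bp were joined into a region, and a region seen in at least 2 of the 3 lists is called reproducible. A region belongs to the gene and class that the authors' annotation gave to its highest-scoring peak. The promoter class reaches 3000 bp from a transcription start site (TSS). The smallest pileup was 8 in experiment 1, 7 in experiment 2 and 9 in experiment 3, so weaker sites were not detectable, and the sequencing depth behind them is unknown. As a check of the cell type, the NK cell genes Ncr1, Klrb1c and Prf1 had 1, 6 and 4 reproducible regions, whereas the T cell gene Cd3g and the B cell gene Cd79a had 0. Binding is not expression, so these counts do not measure the purity of the cells.

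Eomes regions were assigned to most mitochondrial ribosomal protein genes, and nearly always at the promoter. A reproducible region was assigned to 52 of the 78 genes (66.7%), against 43.6% of all protein-coding genes. A reproducible promoter region was assigned to 50 of the 78 (64.1%), against 37.2% of all genes. For regions in all 3 lists, the count was 40 of 78 (51.3%), against 28.8%. Outside promoters, 12 of the 78 genes (15.4%) had a reproducible region, which is close to the 15.1% of all genes. Genes are not replicates of an experiment, so these shares are descriptions and carry no p-value.

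A peak was assigned to 58, 57 and 67 of the 78 members in experiments 1, 2 and 3 (74.4%, 73.1% and 85.9%), against 54.1%, 54% and 60.1% of all protein-coding genes. Counting genes across lists, 46 members (59.0%) had a peak in all 3 lists, against 40% of all genes, while 17 members had one in 2 lists, 10 in 1 list and 5 in none. The peaks came as 293 intervals that formed 175 regions, and 65 of those regions were reproducible.

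Among 53 other genes that work with the mitochondrial ribosome, 37 (69.8%) had a reproducible region, against 43.6% of all genes. The count was 21 (39.6%) for regions in all 3 lists, against 51.3% of members and 28.8% of all genes. All 5 mitochondrial ribosomal proteins that carry other names (Dap3, Gadd45gip1, Chchd1, Ptcd3 and Aurkaip1) had a reproducible promoter region. The same held for 8 of 12 mitochondrial translation factors, 11 of 17 mitochondrial aminoacyl-tRNA synthetases and 12 of 19 genes of ribosome assembly and ribosomal RNA modification, where the share of all genes was 37.2%. Mtg1, a GTPase of ribosome assembly, had promoter folds of 12.4, 15.9 and 13.8 in experiments 1, 2 and 3, higher in each list than the highest promoter fold of any Mrpl or Mrps gene. A further list, drawn up around mitochondrial DNA transcription, held Polrmt, Tfam, Tfb2m, Tefm, Mterf1a, Lrpprc and Slirp. Of these 7 genes, 4 had a reproducible region (57.1%, against 43.6% of all genes). They were Tfam, the packaging and transcription factor of mitochondrial DNA, Tfb2m, Tefm and Lrpprc.

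The share of members with an assigned reproducible region lay between those of 2 larger families. A reproducible region was assigned to 52 of 78 mitochondrial ribosomal protein genes (66.7%), against 60 of 82 cytosolic ribosomal protein genes (73.2%) and 48 of 86 respiratory chain and ATP synthase genes (55.8%). Among all protein-coding genes the share was 43.6%. Without experiment 3 the counts were 42 of 78 members, 45 of 82 cytosolic ribosomal protein genes and 29 of 86 respiratory chain genes, against 30.4% of all genes. For regions in all 3 lists the shares were 51.3% of members, 50% of cytosolic ribosomal protein genes and 37.2% of respiratory chain genes, against 28.8%. Shares of this size were thus also found for ribosomal protein genes of the cytosol.

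**Figure D1:**
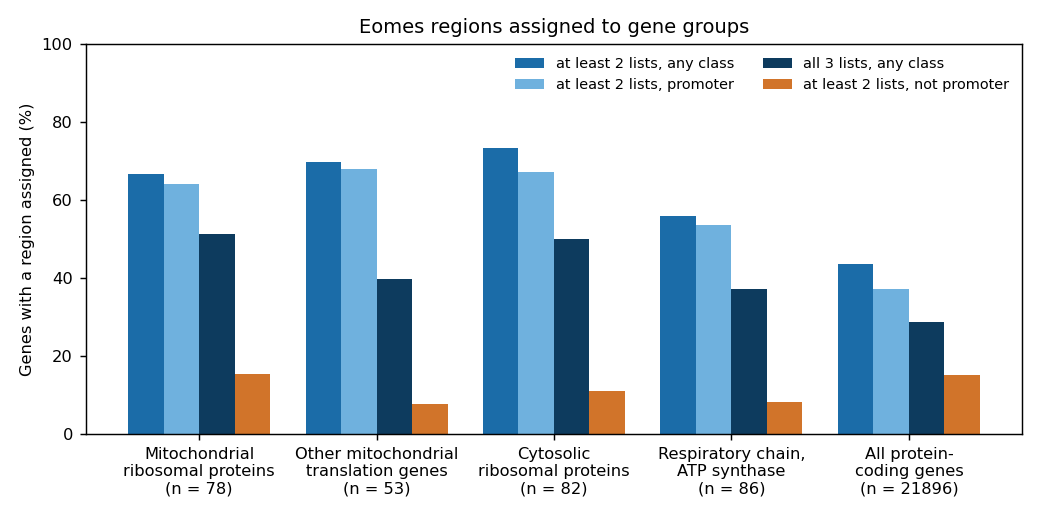
Bars show the percentage of genes in each group with an assigned Eomes region under 4 definitions (colours), with the number of genes under each group. Mitochondrial ribosomal protein genes stood at 66.7% for any reproducible region and all protein-coding genes at 43.6%, while regions outside promoters reached 15.4% and 15.1%.

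The shares of Mrpl (large subunit) and Mrps (small subunit) genes were not clearly apart. A reproducible region was assigned to 34 of 49 Mrpl genes (69.4%) and 18 of 29 Mrps genes (62.1%), a difference of 7.32 percentage points. The split follows the symbols, and with Mrps18a and Mrps30, whose proteins sit in the large subunit of mammals, moved over, the counts were 35 of 51 and 17 of 27. Leaving out experiment 1, 2 or 3 gave differences of 18.4, 11.5 or 14.4 points. Counting every gene named by a peak of the region gave 2.46. Counting by position at the RefSeq start gave 1.83, but members without a listed start were then taken as lacking a region. Among genes with a listed start, 33 of 43 Mrpl (76.7%) and 19 of 26 Mrps genes (73.1%) had a region within 1000 bp, against 39.6% of all genes. For regions in all 3 lists the counts were 29 of 49 Mrpl genes (59.2%) and 11 of 29 Mrps genes (37.9%). Taking any peak in each list, the difference had an SD of 9.56 points over the 3 experiments, and in experiment 3 it ran the other way, with 81.6% of Mrpl and 93.1% of Mrps genes. By descent, 30 of 47 members with a counterpart in bacterial ribosomes (63.8%) and 22 of 31 without one (71.0%) had a reproducible region, and for regions in all 3 lists the order turned, at 25 of 47 (53.2%) and 15 of 31 (48.4%).

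Most regions of members sat on a start site. Of the 65 reproducible regions, 51 (78.5%) were in the promoter class, against 65.6% of all 16483 reproducible regions assigned to protein-coding genes. Intron regions were rare, at 1 of 65 (1.54%) for members and 16.5% for all genes, and distal intergenic regions made up 12 of 65 (18.5%), against 13.3%. Of the 51 promoter regions, 46 had a deposited distance of 0, which means that the highest-scoring peak covered a TSS. Taking the best-scoring promoter peak of each gene, 76.0%, 73.1% and 82.5% of members had a distance of 0 in experiments 1, 2 and 3. Among all genes with such a peak it was 48.0%, 52.7% and 59.4%. The promoter regions were 275 to 915 bp wide, with a median of 484 bp.

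Summits, the highest points of the peaks, lay closer to the RefSeq start in members than in genes at large. For the best-scoring promoter peak of each gene, the median distance between summit and start was 73.0, 90.5 and 99.0 bp for members in experiments 1, 2 and 3, against 241, 196 and 181 bp for all genes with such a peak. Within 250 bp of the start were 31 of 43 member summits in experiment 1, 35 of 44 in experiment 2 and 44 of 55 in experiment 3. These are 72.1%, 79.5% and 80.0% of members, against 50.8%, 55.0% and 56.8% of all genes. The smaller distance was seen in each of the 3 lists. Summits of other families were not compared. By deposited distance to the TSS, the position was shared by the larger families named above. Best-scoring promoter peaks of respiratory chain genes had an upper quartile of 0 bp in each list. For cytosolic ribosomal protein genes it was 0 bp in experiments 2 and 3, and above 0 but below all genes in experiment 1. For all genes it was 499, 355 and 295 bp, and for members 0, 6.75 and 0 bp.

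**Figure D2:**
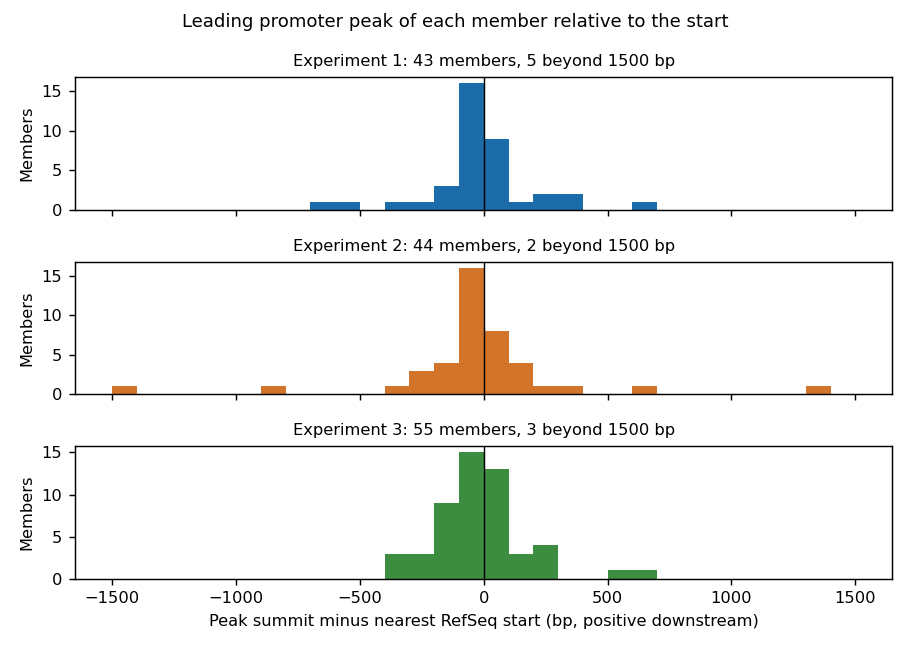
Histograms, 1 per experiment, count members by the position of the summit of their best-scoring promoter peak relative to the nearest RefSeq start (bp, bins of 100). In each experiment most summits lie within 250 bp of the start (72.1%, 79.5% and 80.0%).

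Enrichment at member promoters was moderate and near that of other genes. The median fold of the best-scoring promoter peak was 4.64, 5.65 and 5.06 for members in experiments 1, 2 and 3, against 4.52, 5.17 and 4.84 for all protein-coding genes with one. The difference averaged 0.278 ± 0.187 fold (SD, n = 3 experiments), and 0.174 without experiment 2. The highest fold was 9.47, 9.69 and 10.7 among members in the 3 lists. These folds cover only genes with a called promoter peak, so they cannot be ranked against the share of genes with one. The position of the promoter region in the list (0% for the highest score) was averaged over the lists in which it had a peak. This mean position had a median of 26.0% for the 50 members with one, and 27.6% for cytosolic ribosomal protein genes. The median was 34.8% for respiratory chain genes and 30.2% for all genes.

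The promoter region of Mrpl12 ranked first among members. Mrpl12 is the counterpart of the bacterial stalk protein L7/L12, which recruits translation factors. The region (chr11:120484360-120484942) had pileups of 35, 18 and 47 and folds of 8.10, 7.14 and 10.7 in experiments 1, 2 and 3, a mean fold of 8.64 ± 1.82 (SD, n = 3). It was high in every list, and its summits lay 8 bp after, 39 bp before and 1 bp after the start. Its promoter, printed above, has the T-box letters GTGTGA beginning 30 bases after the start and no ETS core.

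The second was Mrpl18, whose human protein carries 5S ribosomal RNA into mitochondria. Its region (chr17:12915853-12916533) had pileups of 32, 19 and 30 and folds of 9.47, 8.61 and 6.89, a mean of 8.32 ± 1.31 (SD, n = 3). The summits lay 231, 204 and 247 bp before the start of Mrpl18, in the interval towards Tcp1, a subunit of the cytosolic chaperonin that starts 238 bp away on the other strand. The summits were thus nearer to the start of Tcp1 than to that of Mrpl18. The printed Mrpl18 window has ETS cores 240 and 50 bases before the start and no T-box letters.

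Mrpl54, Mrpl34 and Mrps15 followed. Mrpl54 (chr10:81266762-81267040) had folds of 6.17, 6.80 and 7.42, the smallest spread of these 3 (6.80 ± 0.626, SD, n = 3). Mrpl34 (chr8:71464293-71465128), the counterpart of bacterial L34, had folds of 5.58, 5.69 and 9.94, with experiment 3 well above the other two. Mrps15 (chr4:126046781-126047287), the counterpart of bacterial S15, had folds of 6.04, 7.14 and 7.81, with summits 28 bp before, 27 bp after and 1 bp before the start. Its printed promoter holds GTGTGA letters beginning 247 bases and, on the other strand, 99 bases before the start, and an ETS core 13 bases before the start.

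The remaining 5 of the 10 best-ranked members were Mrps33, Mrpl38, Mrpl17, Mrpl52 and Mrpl39. Mrps33, a protein without a bacterial counterpart, had folds of 3.89, 9.69 and 8.29 the widest range of the 10, with experiment 1 low. Mrpl52 had 4.89, 7.34 and 8.95. Mrpl17, the counterpart of bacterial L17, had 5.82, 6.18 and 4.85, and Mrpl39 had 5.32, 6.03 and 6.22, so these genes were close in all lists. Mrpl38 was the exception in position, as its region (chr11:116136275-116136681, folds of 8.28, 6.10 and 4.80) lay within the promoter class at a deposited distance of 1684 bp upstream of a TSS, yet inside the gene's RefSeq interval.

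The 5 lowest-ranked promoter regions belonged to Mrpl55, Mrpl46, Mrps2, Mrps34 and Mrps9. Mrps9, the counterpart of bacterial S9, had a peak in experiments 1 and 3 with pileups of 11 and 13 and folds of 3.52 and 2.98. Mrps34 had folds of 4.55 and 3.11 in experiments 2 and 3, and Mrps2 had 5.39, 2.91 and 3.16 in all 3. These 3 genes had pileups between 10 and 16, where the smallest in the lists were 8, 7 and 9. In experiment 2 the Mrpl55 region was assigned to 2610507I01Rik instead.

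**Figure D3:**
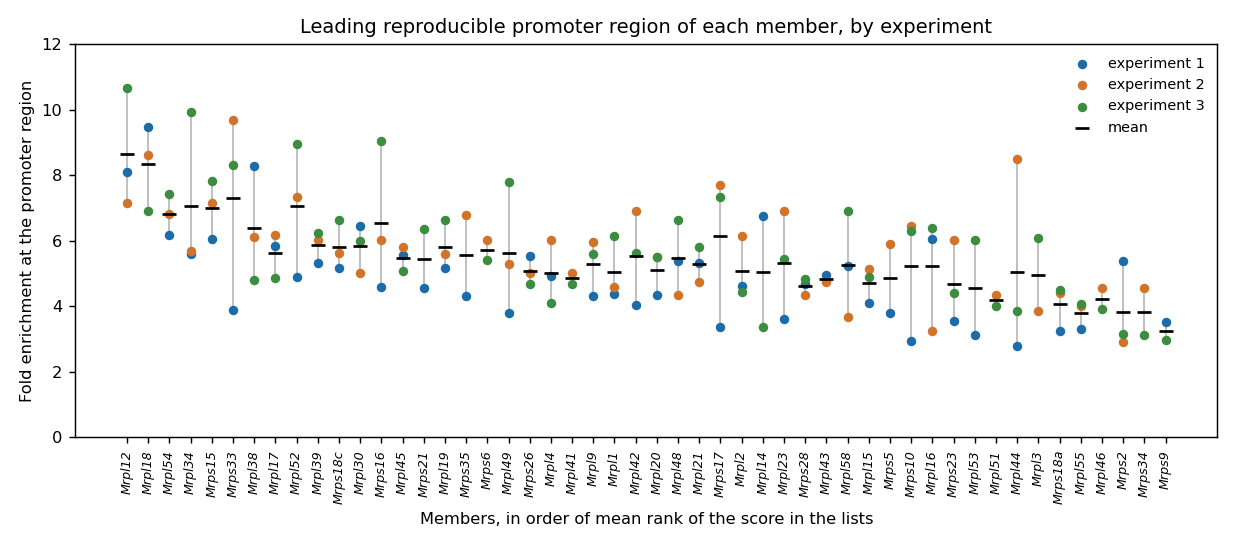
Points give the deposited fold enrichment of each member's leading reproducible promoter region in each experiment (colours). Grey lines give the range and black dashes the mean. Members are ordered by their mean rank over the lists with a peak. Means run between 3.25 (Mrps9) and 8.64 (Mrpl12), and the range between experiments often exceeds the difference between neighbouring members.

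The order of members was partly shared between experiment 3 and each of the others, and hardly at all between experiments 1 and 2. The ranks of single members given above carry this limit. For the 39 members with a promoter peak in all 3 lists, Spearman's rho between the −log10 q-values was 0.0173 between experiments 1 and 2. It was 0.376 between experiments 1 and 3, and 0.489 between experiments 2 and 3. For the 6207 genes with a promoter peak in all 3 lists it was 0.511, 0.576 and 0.595.

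Starts shared with a second gene were common in the family. Of the 69 members with a start in the RefSeq promoter table, 24 (34.8%) had another gene starting within 1000 bp on the opposite strand and pointing away, against 8.48% of all 17491 genes in the table, 14.5% of cytosolic ribosomal protein genes and 27.1% of respiratory chain genes. The distance between the paired starts ran between 32 bp (Mrpl21 and Ighmbp2) and 935 bp (Mrpl41 and Pnpla7), with a median of 136 bp. Partners included Twnk, the mitochondrial DNA helicase, next to Mrpl43, and Fau, which encodes a cytosolic ribosomal protein, next to Mrpl49.

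Regions were also counted by position and not by assignment. A reproducible region lay within 1000 bp of the start of 52 of the 69 members (75.4%), against 39.6% of all genes in the table. Such a region was found at 21 of the 24 members with a divergent partner (87.5%) and at 31 of the 45 others (68.9%). Among all genes the shares were 79.2% with a divergent partner and 35.9% without. Members without a partner had a region at the start more often than genes without a partner in general. The same held for cytosolic ribosomal protein genes (40 of 53, 75.5%) and respiratory chain genes (33 of 51, 64.7%) without a partner. A window between paired starts serves both genes, so a region there cannot be credited to either.

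**Figure D4:**
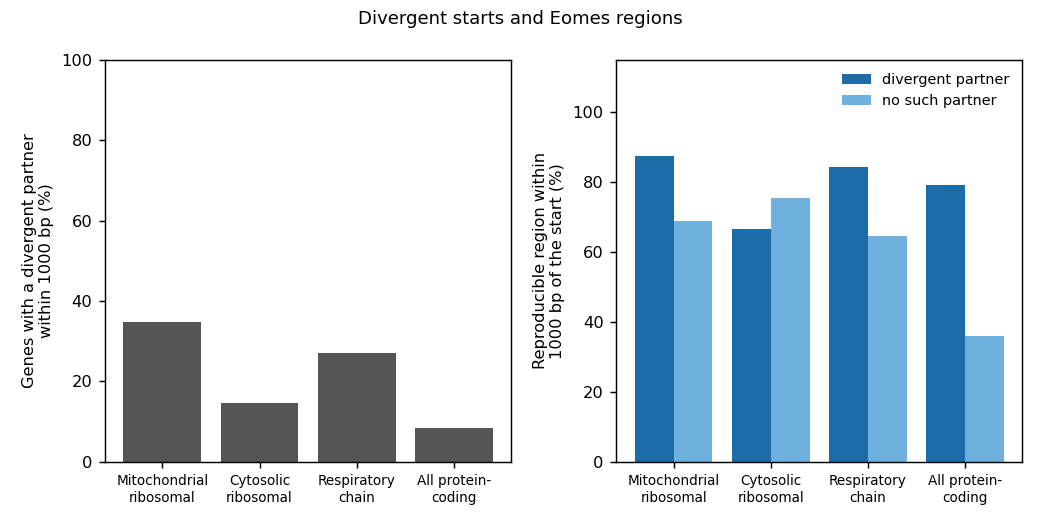
The left bars give the percentage of genes with a divergent partner starting within 1000 bp, and the right bars the percentage with a reproducible region within 1000 bp of the start, for genes with and without such a partner. Mitochondrial ribosomal protein genes had a partner in 34.8% of cases and all protein-coding genes in 8.48%.

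Of the 26 members without an assigned reproducible region, 10 had one near their start that the annotation gave to another gene. In 9 of these 10 the start was divergent, and the region bore the partner's name. The strongest was at Mrpl40, where a region over its start (chr16:18876388-18877343) was assigned to Hira, a histone chaperone gene that starts 113 bp away, with folds of 7.85, 9.84 and 12.7. That mean fold of 10.1 ± 2.43 (SD, n = 3) exceeds that of every promoter region assigned to a member. However, it joins peaks at different places. Their summits were at 18876583, 18877179 and 18877161 in experiments 1, 2 and 3, and the Mrpl40 start is at 18876637. Only the peak of experiment 1 thus had its summit close to the Mrpl40 start. In experiment 1 the highest-scoring peak of the region, with the fold of 7.85, carried the name Mrpl40. In experiment 2 a lower-scoring peak of the region was named Mrpl40, with a fold of 6.03 and a summit 63 bp after the start.

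The other regions given to partners covered a range of strengths. Mrps18b shared its region with Ppp1r10, a regulator of protein phosphatase 1 (mean fold 7.41 ± 1.98, SD, n = 3). Mrpl47 shared one with Ndufb5, a complex I subunit (6.41 ± 0.698), Mrps7 with Gga3 (6.01 ± 1.20) and Mrps27 with Ptcd2 (5.42 ± 1.29), each with n = 3. These were regions in all 3 lists. In 2 lists each were the regions at Mrpl57, assigned to Ska3, a kinetochore gene (folds of 4.635 and 5.405 in experiments 2 and 3), at Mrpl37, assigned to Cyb5rl (3.31 and 3.11), and at Mrps12, assigned to Sars2, the mitochondrial seryl-tRNA synthetase gene (3.23 and 3.04).

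Mrps11 and Mrpl46 form a pair within the family, with starts 42 bp apart. Their region (chr7:78782850-78783215) was named Mrpl46 in experiment 2 and Mrps11 in experiment 3, with folds of 4.553 and 3.903, and had no peak in experiment 1. The printed Mrps11 window, which spans both starts, has a YY1 motif and none of the T-box or ETS letters. The tenth gene was Mrpl33, which has no divergent partner. The region over its start (chr5:31613869-31614322) had folds of 6.36, 5.52 and 4.45, and the lists give no symbol for the assigned gene.

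The other 16 members had no assigned reproducible region. None lay near their start in the table either, except that Mrpl13 has no start there and could not be scored. Mrpl24 had no peak within 1000 bp of its start in any list, and Mrpl50 had one in a single experiment, assigned to its neighbour Zfp189. Mrpl28, Mrps22 and Mrps24 had a peak in every list, but at places that did not overlap. Mrps24, for example, had promoter peaks with pileups of 9, 9 and 11 in experiments 1, 2 and 3 at 3 separate positions. Mrpl11, Mrpl13, Mrpl35, Mrps14 and Mrps30 had peaks in 2 lists that did not overlap either. Mrpl10, Mrpl22, Mrpl27, Mrpl36, Mrps25 and Mrps36 had a peak in 1 list only.

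Regions away from promoters were few, and 3 of them (at Mrpl3, Mrpl14 and Mrpl58) had a higher mean fold than any promoter region assigned to a member. The 14 such regions belonged to 12 members, 7 of them were in all 3 lists, and 12 were intergenic. For 10 of the 12 members there was a promoter region as well, while Mrpl32 and Mrps31 had a distal region only. Their mean folds ran between 3.12 and 10.6, with a median of 5.39, against 3.25 to 8.64 and a median of 5.26 for the promoter regions.

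Mrpl3, the counterpart of bacterial L3, had the highest. A region 29606 bp downstream of a TSS of Mrpl3 (chr9:105100794-105101077) had pileups of 31, 21 and 42 and folds of 10.8, 9.47 and 11.4 (mean 10.6 ± 0.984, SD, n = 3). It was strong in all 3 lists and lies between Mrpl3 and Nudt16. The promoter region of Mrpl3 was weaker, with no peak in experiment 1 and folds of 3.85 and 6.07 in experiments 2 and 3.

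Mrpl14, the counterpart of bacterial L14, had 3 reproducible regions. The strongest lay 7772 bp downstream of a TSS (chr17:45703188-45703735), with pileups of 46, 33 and 44 and folds of 7.94, 8.99 and 11.9 (9.62 ± 2.07, SD, n = 3). The promoter-class regions, at deposited distances of 1911 bp upstream and 0, were each in experiments 1 and 3, with folds of 6.75 and 3.36 at the first and 4.261 and 3.603 at the second. At the RefSeq start of Mrpl14, a region 339 bp away was assigned to Tmem63b (3.95 and 3.86 in experiments 1 and 3).

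Mrpl58 encodes a release factor that became part of the mitochondrial ribosome. A region classed as downstream of the gene, 3056 bp from a TSS (chr11:115413216-115413737), had folds of 7.59, 7.22 and 13.2, a mean of 9.34 ± 3.36 (SD, n = 3), with experiment 3 high. At its promoter the folds were 5.21, 3.68 and 6.89. The downstream region was thus higher than the promoter region in every experiment.

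Mrps23 had the most reproducible regions, with 1 at the promoter and 3 in the intergenic stretch before Ccdc182. The farthest of these (29651 bp from the TSS) had folds of 5.404, 8.43 and 7.78, a mean of 7.20 ± 1.59 (SD, n = 3), against 3.54, 6.03 and 4.41 at the promoter. The others lay 9439 and 10046 bp from the TSS, at mean folds of 4.58 and 5.30. Mrpl46 had an intergenic region 19694 bp away in all 3 lists (6.86 ± 1.10, SD, n = 3), and Mrpl19 had one 21070 bp upstream in experiments 1 and 2 (5.39 and 7.32). Intergenic regions assigned to Mrpl4, Mrpl45, Mrpl32 and Mrps31, and the intron region assigned to Mrps28, were each in 2 lists, at mean folds of 3.38, 5.48, 3.75, 3.45 and 3.12.

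Assignment by nearest start does not show which gene a distal site serves. The region given to Mrps18a 36808 bp upstream (folds of 2.77, 6.46 and 4.09) lies between Vegfa, the vascular growth factor gene, and Mrps18a. The intron region given to Mrps28 lies within Tpd52. The region upstream of Mrpl4 lies between that gene and S1pr2, a sphingosine phosphate receptor gene.

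**Figure D5:**
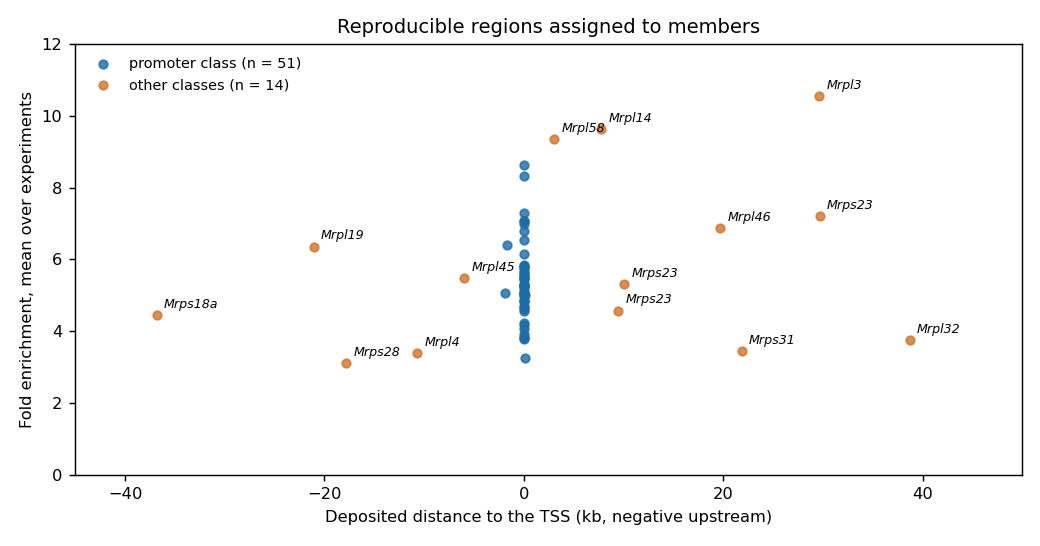
Each point is a reproducible region assigned to a member, placed by its deposited distance to the TSS (kb) and its mean fold over the experiments with a peak. The 51 promoter-class regions gather at the start, with mean folds up to 8.64, and the regions of Mrpl3 (10.6), Mrpl14 (9.62) and Mrpl58 (9.34) away from it stand above all of them.

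The Mrps18 paralogs, 3 related genes of which mammals place the proteins at different sites of the ribosome, were unlike in their regions. Mrps18c, which starts 159 bp from the DNA helicase gene Helq, had folds of 5.17, 5.62 and 6.61 at its promoter. Mrps18a had 3.24, 4.41 and 4.50, lower in every experiment. Mrps18b had no reproducible region of its own, only the one assigned to Ppp1r10, whose peak in experiment 3 carried the name Mrps18b.

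T-box letters were scarcer in member promoters than in promoters at large. In the 300-base windows, searched on both strands, AGGTGTGA and the GGTGTGA within it were found at 0 of 69 members, against 1.35% and 4.32% of all genes in the table. The still shorter GTGTGA, which both contain, was found at 5 of 69 members (7.25%), against 15.3%. The 5 were Mrpl12, Mrpl39, Mrpl49, Mrps15 and Mrps36. The first 4 had a reproducible region within 1000 bp of the start, as did 52 of all 69 members (75.4%). Among the 52 members with a region within 1000 bp of the start, 4 (7.69%) held GTGTGA, against 1 of the 17 without one (5.88%).

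Other motifs were more frequent in member promoters. The ETS core CCGGAA was found at 40 of 69 members (58.0%), against 20.9% of all genes, and the longer CCGGAAGT, which contains it, at 12 (17.4%), against 5.69%. The YY1 motif AAGATGGC was found at 12 members (17.4%), against 3.57%, and the NRF1 motif GCGCATGCG at 7 (10.1%), against 2.61%. The cyclic AMP response element TGACGTCA was about equal, at 2 members (2.90%), against 2.54%. The ETS core was as frequent in members with a region near the start (30 of 52, 57.7%) as in those without (10 of 17, 58.8%). A match is a run of letters and not a bound site, and a motif missing from this window may lie elsewhere under the peak.

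Member promoters were also rich in CpG. The median was 21 CpG per 300 bases for members, against 13 for all genes, at a median G+C content of 58.0% and 56.3%. Members with a region near the start had a median of 23 CpG and 60.3% G+C, and the 17 members without one 16 CpG and 52.7% G+C. Whether base composition, or the openness of promoters in these cells, accounts for the share of members with a region was not tested.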

How the data were processed

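The study gave 3 IP and 3 input libraries of mouse NK cells, and the authors deposited 1 peak list for each experiment, on mm10. The submitters' processing notes name Novoalign for alignment and ChIPseeker for annotation, with no version. Not given in the sources used here are the peak caller, its settings, the scaling of the pileup and the sequencing depth. Per the file headers, each deposited peak has a pileup (a signal at its summit), a fold enrichment (a ratio to background), a −log10 q-value, and a class, gene and distance to the TSS. These are the authors' own values. Folds were ranked or summarised within a list, and across lists were averaged per region, as was the difference in median fold between members and all genes.

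Where an interval had several rows, the row with the highest −log10 q-value was kept. Intervals sharing at least 1 bp were joined with Python 3.11.15 and pandas 2.3.3, and the joining was tested on simulated data. Symbols, and failing that a synonym held by only 1 gene of the chromosome, linked peaks to RefSeq GRCm38.p6 protein-coding genes. Of the intervals, 74.7%, 77.5% and 76.8% matched. A start within 1000 bp on the opposite strand, pointing away, counted as divergent. Of the 78 members, 69 had a promoter sequence. Named were the 10 best and 5 worst members by mean rank of the promoter region, members with a region outside promoters or without a reproducible region, and the Mrps18 paralogs. The mean rank covers only the lists in which the region had a peak, so absence from 1 list does not lower it. The members, the gene lists and the motifs were chosen with earlier results of these data known, so no test was run over them.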

Additional observations from a re-analysis of the deposited data

How the results depend on the processing

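No paired analysis was possible because no test was made and each list already sets an IP library against the input of its own experiment. The number of members with a reproducible region, 52, stayed within 1.5 times under every setting tried. It was 48 (61.5%, against 42.1% of all genes) with an overlap of 50% of the shorter peak. At a −log10 q of at least 3 it was 46 (59.0%, against 35.55%), and for all 3 experiments 40 (51.3%, against 28.8%). Without experiments 1, 2 and 3 it was 44, 46 and 42, where 36.6%, 35.3% and 30.4% of all genes had one. Counting a region for every gene its peaks name, an alternative added with the data in view, gave 55 (70.5%, against 44.8%). By position within 1000 bp of a RefSeq start it was again 52, here of the 69 members with a listed start (75.4%, against 39.6% of all genes). In this count 10 members were gained and 10 lost. Of those lost, only Mrpl32 and Mrps31 had a listed start, and the others could not be scored by position. Promoter counts ran between 37 and 53 around 50. The 37, for all 3 experiments, were 47.4% of members, against 24.2% of all genes.

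The promoter share of member regions (78.5%) moved to 81.8% at a −log10 q of at least 3, to 84.1% for all 3 experiments, and to 81.1% to 83.3% without 1 experiment. The large minus small subunit difference (7.32 percentage points) moved to 17.03 at the stricter score and to 21.2 for all 3 experiments, and ran between 11.5 and 18.4 without 1 experiment. It was 2.46 counting every gene named by a peak, and 5.66 with Mrps18a and Mrps30 counted as large subunit. By position at the RefSeq start it was 1.83, with members lacking a listed start counted as having no region. Among those with a listed start, the shares were 76.7% and 73.1%. The cause was not tested. The other mitochondrial translation genes with a region (37) fell to 21 for all 3 experiments. They numbered 25 to 28 when 1 experiment was left out. Respiratory chain genes (48) numbered 29 to 41, and cytosolic ribosomal protein genes (60) 45 to 49, under the same omissions. Requiring more lists or leaving one out allows fewer genes by construction. The share of all genes also fell, from 43.6% to 28.8% for all 3 experiments and to between 30.4% and 36.6% without 1 experiment. The distance of member promoter regions to the TSS had a median of 0 bp as deposited, and of 98.0 bp from the region's midpoint to the RefSeq start. The excess of the median promoter fold over all genes (0.278) ran between 0.174 and 0.355 without 1 experiment. Peaks below the smallest pileups of the lists were not detectable, and 3 experiments limit the precision of every mean.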
